A study of Mus musculus with 15 samples.

Results

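Of 15 mouse submandibular gland libraries, 6 held Dcpp3 transcripts above 100 CPM, the usual scaling of a gene's count to a common library total, and these 6 were compared with the 9 libraries at or below that level. Dcpp3 encodes a demilune cell and parotid protein, a secretory product of the sublingual gland. The 6 libraries above the cut were replicates 2 and 3 of IR_iEV_4d, replicates 1 and 2 of IR_4d, replicate 2 of IR_iEV_30d and replicate 1 of NT. The 9 libraries below it were replicate 1 of IR_iEV_4d, replicate 3 of IR_4d, replicates 1 and 3 of IR_iEV_30d, all 3 replicates of IR_30d, and replicates 2 and 3 of NT. The libraries were chosen by their measured Dcpp3 level, so the values of Dcpp3, and of Dcpp1 and Dcpp2, which resemble it, are a description only. For every other gene the fit reports how its counts varied with the Dcpp3 division among libraries of the same treatment group.

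All samples were bulk RNA from submandibular glands of wild-type male C57BL/6 mice that were 8 to 10 weeks old, with 3 libraries in each of 5 groups. IR_iEV_4d and IR_iEV_30d glands had been irradiated with 15 Gy at the gland region, injected with iEVs each week from day 1 after irradiation, and taken at day 4 or day 30. IR_4d and IR_30d glands had the irradiation alone and were taken on the same days, and NT glands had no treatment. The title of the series speaks of extracellular vesicles of mesenchymal stem cells, and the labels do not spell out iEV. The labels name no group with an injection lacking iEVs or with iEVs but no irradiation, and the day on which NT glands were taken is not stated. The labels do not say whether each library came from its own mouse, so the p-values speak only of the spread among these libraries, part of which may be technical.

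The sublingual gland lies against the submandibular gland, within the same capsule in the mouse. Its acini are mainly mucous cells that secrete the gel-forming mucin Muc19, and they are capped by serous demilunes that secrete proteins of the Dcpp family. The homeobox factor Nkx2-3 is required for its maturation in the mouse. Mucins are made by attaching N-acetylgalactosamine to serine and threonine, a step catalysed by the Galnt enzymes, and by extending that sugar into branched chains in the Golgi. The male mouse submandibular gland instead makes seromucous acinar products and, in its granular convoluted tubules, kallikreins and Egf. In bulk RNA, more cells of a type and more RNA per cell cannot be told apart.

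The promoters of the 3 Dcpp genes are shown because all 3 were higher in every library above the cut than in any below it, and because reads of such similar genes can be credited to the wrong member. The sequences are from RefSeq on the mouse build GRCm38.p6, which precedes the build used for the counts. Each runs from 250 bases before to 50 bases after the annotated start, and the capitals mark the letters TATAA. All 3 lie on the forward strand of chromosome 17, Dcpp3 at chr17:23917208-23917507, Dcpp2 at chr17:23898472-23898771 and Dcpp1 at chr17:23880626-23880925.
Dcpp3: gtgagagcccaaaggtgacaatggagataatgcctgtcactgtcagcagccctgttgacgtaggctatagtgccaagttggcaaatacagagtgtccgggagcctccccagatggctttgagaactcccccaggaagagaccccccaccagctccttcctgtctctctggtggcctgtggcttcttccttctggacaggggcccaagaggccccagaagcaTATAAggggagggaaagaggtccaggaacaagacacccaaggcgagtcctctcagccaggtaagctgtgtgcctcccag
Dcpp2: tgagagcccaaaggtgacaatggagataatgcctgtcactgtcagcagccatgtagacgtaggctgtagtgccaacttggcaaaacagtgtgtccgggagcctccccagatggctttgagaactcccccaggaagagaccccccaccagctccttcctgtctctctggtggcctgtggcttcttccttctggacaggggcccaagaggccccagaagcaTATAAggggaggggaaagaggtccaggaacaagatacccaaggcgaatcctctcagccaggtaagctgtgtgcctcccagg
Dcpp1: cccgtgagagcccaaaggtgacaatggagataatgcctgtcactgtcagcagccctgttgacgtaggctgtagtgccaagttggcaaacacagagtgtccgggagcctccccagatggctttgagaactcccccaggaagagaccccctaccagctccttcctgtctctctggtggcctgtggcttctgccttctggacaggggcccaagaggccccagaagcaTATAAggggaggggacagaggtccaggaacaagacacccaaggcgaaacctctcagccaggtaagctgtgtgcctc
The promoter of Dcpp2 was 96.4% identical to that of Dcpp3, and the promoter of Dcpp1 was 95.1% identical to it. Dcpp1 and Dcpp2 were 93.8% identical to each other there. The transcripts were 91.8% identical between Dcpp2 and Dcpp3, 93.4% between Dcpp1 and Dcpp3 and 90.3% between Dcpp1 and Dcpp2. Their longest shared runs were 145, 168 and 144 bases, in the same order of pairs. How the authors credited reads that fit more than 1 member is not given in the sources used here, so the level of each single Dcpp gene is uncertain.

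The same window is shown for A2ml1 and Smgc, which were among the called genes described below. A2ml1 is on the reverse strand at chr6:128581557-128581856 and Smgc on the forward strand at chr15:91838078-91838377.
A2ml1: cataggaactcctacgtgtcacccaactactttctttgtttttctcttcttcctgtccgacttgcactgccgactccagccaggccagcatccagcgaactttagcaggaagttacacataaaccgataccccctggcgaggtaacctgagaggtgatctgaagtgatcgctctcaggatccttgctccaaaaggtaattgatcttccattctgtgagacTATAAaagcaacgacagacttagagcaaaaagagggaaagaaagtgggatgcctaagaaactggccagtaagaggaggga
Smgc: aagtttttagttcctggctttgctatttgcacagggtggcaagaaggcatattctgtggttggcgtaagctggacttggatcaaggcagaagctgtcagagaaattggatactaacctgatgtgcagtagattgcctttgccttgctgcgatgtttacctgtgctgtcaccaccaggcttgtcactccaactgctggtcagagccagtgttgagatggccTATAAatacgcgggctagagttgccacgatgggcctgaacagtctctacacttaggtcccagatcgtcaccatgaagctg
The letters TATAA began 29, 31, 26, 30 and 30 bases before the start in Dcpp3, Dcpp2, Dcpp1, A2ml1 and Smgc. On either strand they occurred in 24.9% of 32851 RefSeq promoters of the same length. Of the 38 genes called higher above the cut, 29 had a promoter in the table and 11 of those held TATAA, in 11 of their 40 promoters. The letters TNAAGTG, searched on both strands as the core bound by NK2 homeobox factors, occurred in 11.5% of promoters and in 6 of the 29 genes, in 7 of their 40 promoters. A match is a description of the sequence and does not show that a factor bound there.

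Dcpp3 separated the libraries by a wide gap. Above the cut it had 1408 and 1953 CPM of the column total in IR_iEV_4d replicates 2 and 3, 3652 and 1290 in IR_4d replicates 1 and 2, 1602 in IR_iEV_30d replicate 2 and 363.3 in NT replicate 1. Below the cut the highest value was 10.27 in IR_30d replicate 2, the median was 1.155 and the lowest was 0.1149 in NT replicate 3. NT replicate 1 was therefore the library just inside the cut and IR_30d replicate 2 the library just outside it. Raw Dcpp3 counts ran from 13407 to 117646 above the cut (median 52240) and from 6 to 381 below it (median 40), so no library was free of Dcpp3 reads.

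**Figure D1:**
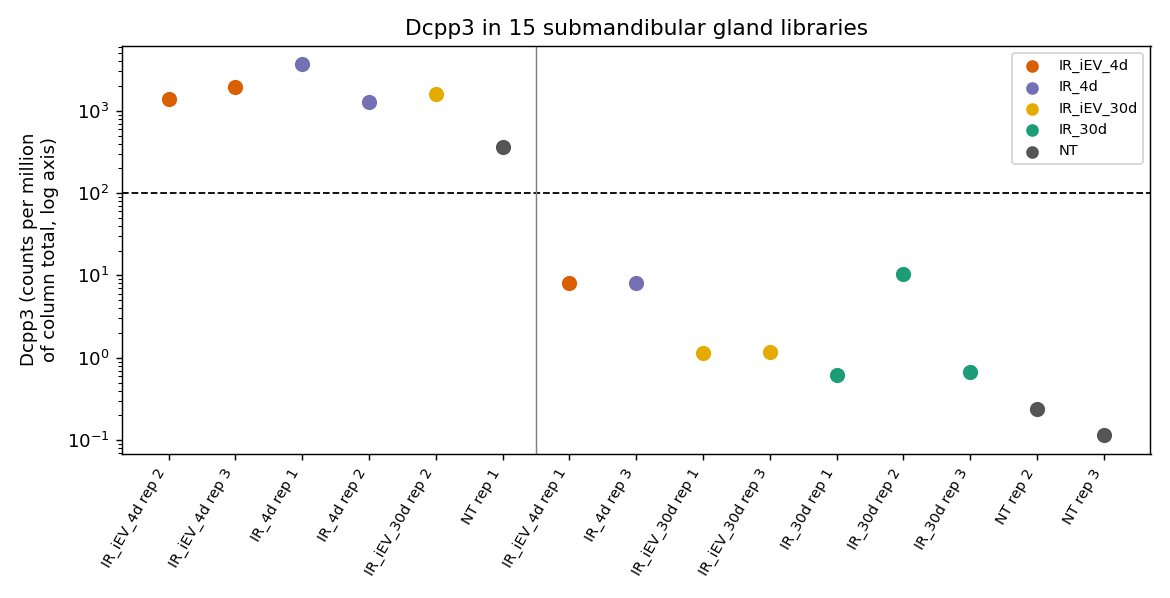
Dcpp3 CPM of the column total (log axis) in each of the 15 libraries, coloured by treatment group, with the cut at 100 dashed. The 6 libraries left of the vertical line lie at 363.3 or more and the other 9 at 10.27 or less, and IR_30d has no library above the cut.

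Library totals ran from 29082798 to 52201098 counts, with medians of 34590000 above the cut and 34630000 below it. The 10 most counted genes took 39.9 to 49.0% of the counts above the cut and 40.7 to 50.4% below it. Submandibular products were high in all 15 libraries: Egf had 21380 to 49540 CPM above the cut and 22640 to 71940 CPM below it. From here on, CPM are scaled by TMM, an edgeR scaling of the library totals. A gene was called when its adjusted p (edgeR's quasi-likelihood test, Benjamini-Hochberg over 16042 genes) was under 0.05 in a model with the 5 treatment groups and the Dcpp3 division. The model had 9 residual degrees of freedom, and log2 ratios are above over below the cut, with a standard error (SE). Both sides of the cut occurred in 4 groups, so IR_30d gave no information on the division.

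A small set of genes was higher in the Dcpp3-high libraries, and nearly all other genes were not called. The set held sublingual secretory products and 5 enzymes of mucin glycosylation, beside genes of mixed kinds. The test called 38 genes higher, which is 0.237% of those tested, and 1 lower, 0.00623%. Of the 38, 37 were higher with no overlap in any of the 4 informative groups, as against 298 of all genes tested, 1.86%. In 33 of the 38 every library above the cut exceeded every library below it, against 58 of all genes tested, 0.362%. The log2 ratio was over 3 in 26 of the 38, from 1.5 to 3 in 6 and under 1.5 in 6. Together they took 0.170 to 1.64% of the counts above the cut (median 0.642%) and 0.00909 to 0.0136% below it (median 0.0103%). These counts and this share include Dcpp3, the gene of the rule, and Dcpp2, which may share its reads. The 38 genes were called on these same libraries, so their separation is a description. An unadjusted p under 0.05 was found for 875 genes. The number called was 18 without IR_iEV_30d replicate 2, 19 without IR_4d replicate 3 and 21 without IR_iEV_4d replicate 1. It was 97 with DESeq2, of which 38 were among the 39.

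**Figure D2:**
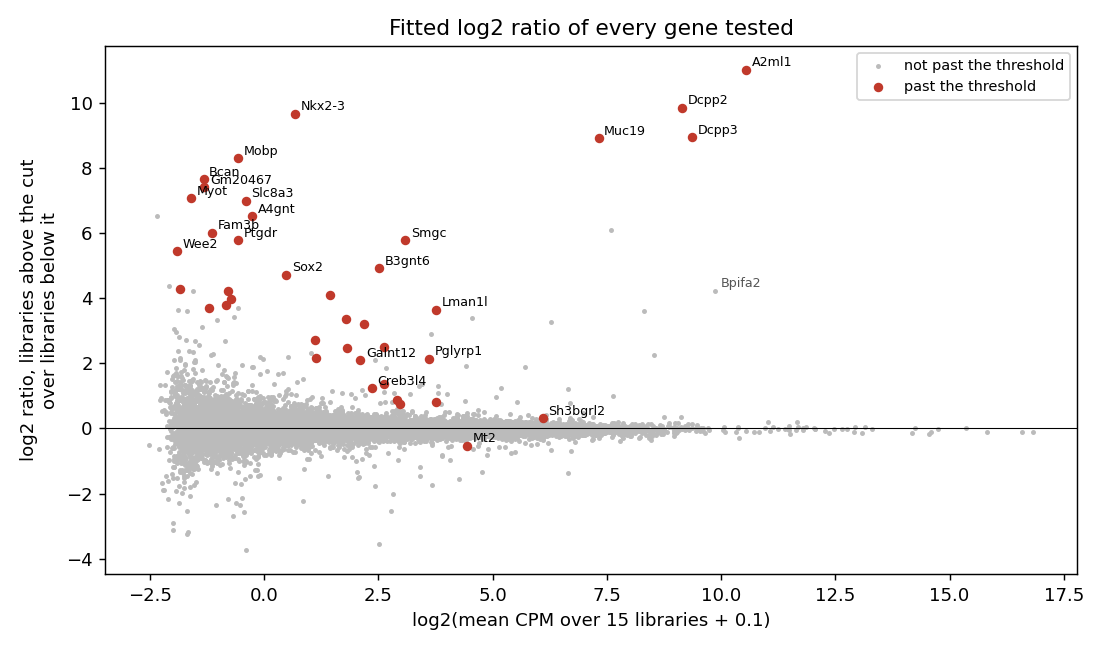
Fitted log2 ratio of the libraries above the Dcpp3 cut over those below it (vertical axis) against log2 of mean CPM over 15 libraries plus 0.1 (horizontal axis) for all 16042 genes tested, with called genes in red. Of the 38 genes called higher, 26 have a ratio over 3, while 6 have one under 1.5, down to 0.31 for Sh3bgrl2. Some genes that were not called also lie far from 0, such as Bpifa2 at 4.23. The largest ratio is that of A2ml1 at 11.01, and Mt2 is the gene called lower.

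Among secreted products, Muc19, the gel-forming mucin of sublingual mucous cells, had 108.6 CPM at the lowest, 378 at the median and 764 at the highest above the cut, and 0.172, 0.524 and 1.01 CPM below it. The lowest of the Dcpp3-high libraries, NT replicate 1, was thus far above the highest of the rest, IR_4d replicate 3. The log2 ratio was 8.91 ± 0.33 (SE, adjusted p = 3.83e-07, edgeR). Within IR_4d, Muc19 had 764 and 453 CPM in replicates 1 and 2, against 1.01 CPM in replicate 3. Within NT it had 108.6 CPM in replicate 1, against 0.849 and 0.296 CPM in replicates 2 and 3.

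A2ml1, which encodes a protease inhibitor related to alpha-2-macroglobulin, had the largest log2 ratio. It had 795 CPM at the lowest, 2959 at the median and 7883 at the highest above the cut, and 0.0185, 0.0860 and 8.11 CPM below it. Its log2 ratio was 11.01 ± 0.80 (adjusted p = 6.18e-04, edgeR). The values below the cut were not even: IR_4d replicate 3 had 8.11 CPM and IR_iEV_4d replicate 1 had 3.21 CPM, while the other 7 libraries had at most 0.266 CPM.

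Smgc, a secretory product of the sublingual gland and of the newborn submandibular gland that shares its locus with Muc19 in the mouse, had 6.48 to 48.6 CPM above the cut (median 15.2) and 0 to 1.60 CPM below it (median 0.0370). Its log2 ratio was 5.77 ± 0.79 (adjusted p = 0.0192, edgeR). Since Smgc and Muc19 are products of 1 locus, how their reads were split is uncertain. The call of Smgc ended without any NT library, without IR_4d replicate 3, without IR_iEV_4d replicate 3 and without any IR_iEV_30d library, with an adjusted p of up to 0.222. Pglyrp1, a secreted peptidoglycan recognition protein that acts on bacteria, had 6.99, 17.5 and 31.3 CPM above the cut at the lowest, median and highest, and 1.89, 3.94 and 20.0 CPM below it. The sets overlapped because the 3 IR_30d libraries had 13.1, 18.4 and 20.0 CPM, and the log2 ratio with groups in the model was 2.14 ± 0.24 (adjusted p = 0.00158, edgeR). Of the list of 6 sublingual products and factors, 3 are Dcpp genes, which the division used or which share reads with its gene. The other 3, Muc19, Smgc and Nkx2-3, were called higher by edgeR, with a median log2 ratio of 8.91, or 8.68 with Nkx2-3 at its bound, against 0.00107 for all genes tested.

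Among transcription factors, Nkx2-3, the homeobox factor needed for sublingual maturation, had reads only in the Dcpp3-high libraries. It had 1.00 CPM at the lowest, 3.48 at the median and 7.07 at the highest above the cut, a sum of 814 counts, and 0 counts in each of the 9 libraries below it. Against a floor of 3 counts over those 9 libraries, 0.00914 CPM, its mean was at least 409-fold higher (adjusted p = 1.70e-04, edgeR). The floor covers counting error only.

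Sox2, a stem cell factor that marks progenitors of sublingual acini in the mouse, had 0.745, 2.84 and 6.68 CPM above the cut at the lowest, median and highest, and 0, 0.0852 and 0.157 CPM below it. Its log2 ratio was 4.71 ± 0.74 (adjusted p = 0.0177, edgeR). The call ended without IR_4d replicate 3, without IR_iEV_4d replicate 1 and without replicate 1 or 2 of IR_iEV_30d, with an adjusted p of up to 0.222. Creb3l4, a membrane-bound factor of secretory cells, had 6.60, 7.30 and 13.0 CPM above the cut and 1.41, 2.69 and 4.78 CPM below it at the lowest, median and highest. Its log2 ratio was 1.24 ± 0.20 (adjusted p = 0.00811, edgeR), and the call ended without NT replicate 1, IR_4d replicate 3 or IR_iEV_4d replicate 1, with an adjusted p of up to 0.0756. Foxa2, a forkhead factor, was too low to be tested, with 26 counts summed above the cut and 0 below it.

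The list of the mucous secretory programme had 11 members tested of the 15 in the table, of which 3 were called higher, Muc19, Nkx2-3 and Creb3l4, with a median log2 ratio of 0.397. The other 8 were not called by edgeR, while DESeq2 called 4 of the 11, the same 3 and Spdef. Spdef, a factor that drives mucous cell differentiation, had a log2 ratio of 0.40 ± 0.09 (adjusted p = 0.0929, edgeR), with 32.5 to 49.0 CPM above the cut and 23.5 to 38.4 CPM below it. Xbp1, Bhlha15 and Creb3l1, which support secretion in many cell types, had log2 ratios between -0.0445 and 0.0398. Among 34 genes of the secretion machinery 0 were called by edgeR (4 at an unadjusted p under 0.05) and 1 by DESeq2, Kdelr3, with a median of 0.0767.

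**Figure D3:**
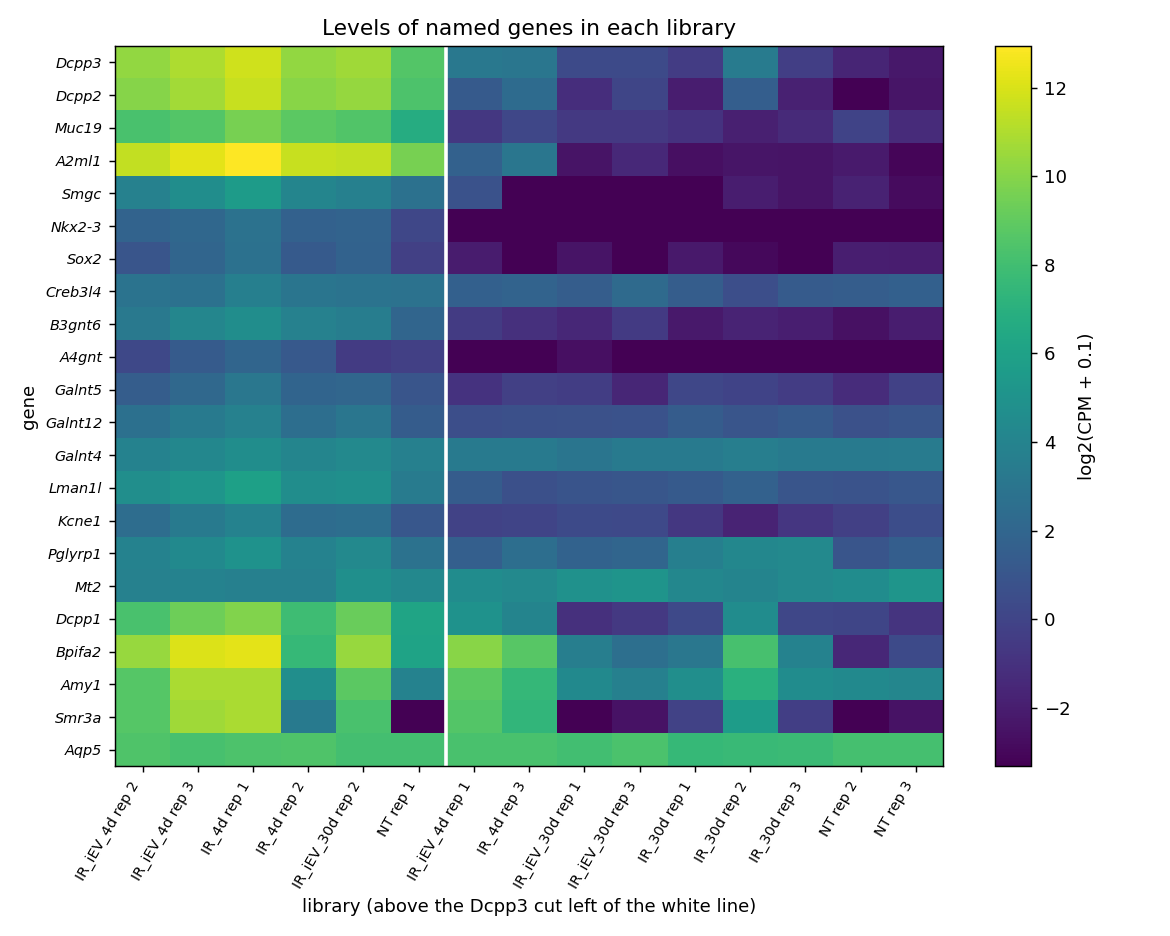
Level of named genes, as log2 of CPM plus 0.1, in each of the 15 libraries, with the 6 libraries above the Dcpp3 cut left of the white line and the 9 below it to the right. Muc19, A2ml1, Smgc and Nkx2-3 are brighter in every library on the left, and Bpifa2, Amy1 and Smr3a are also bright in some libraries on the right. Aqp5 stays between 192.1 and 358 CPM, with its lowest values in IR_30d.

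Of the enzymes of mucin-type O-glycosylation, 5 of 43 tested members were called higher and 38 were not called, and the list held 48 genes of the table. DESeq2 called 7, the same 5 with Galnt6 and Gcnt3. The median log2 ratio of the 43 was 0.180, against 0.00107 for all genes tested. The ratio was above 0 in 29 of the 43, and 10 had an unadjusted p under 0.05 (edgeR). Of all 16042 genes tested, 8076 had a ratio above 0 and 875 such a p. B3gnt6, the core 3 synthase that extends the first sugar of mucin chains, had 3.90, 12.8 and 25.6 CPM above the cut at the lowest, median and highest, and 0.0629, 0.201 and 0.622 CPM below it. Its log2 ratio was 4.92 ± 0.28 (adjusted p = 3.83e-07, edgeR). A4gnt, which caps mucin chains with alpha-1,4-linked N-acetylglucosamine, had 0.609 to 3.87 CPM above the cut, where it summed to 397 counts, and 2 counts in all below it (adjusted p = 7.50e-04, edgeR).

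Of the Galnt enzymes that start O-glycan chains, 3 were called. Galnt5 had 1.83 to 8.52 CPM above the cut and 0.242 to 1.03 CPM below it, with a log2 ratio of 2.72 ± 0.36 (adjusted p = 0.00188, edgeR). Galnt12 had 2.58 to 14.1 CPM above the cut and 1.38 to 2.57 CPM below it (log2 2.10 ± 0.34, adjusted p = 0.0185, edgeR). Galnt4 had 13.7 to 25.1 CPM above the cut and 8.04 to 12.6 CPM below it (log2 0.82 ± 0.13, adjusted p = 0.0116, edgeR). The calls of both Galnt12 and Galnt4 ended without IR_4d replicate 3, IR_iEV_4d replicate 1 or IR_iEV_30d replicate 2, that of Galnt12 also without IR_iEV_30d replicate 1 or 3, with an adjusted p of up to 0.240 for Galnt12 and 0.190 for Galnt4. The broadly expressed Galnt1, Galnt2 and Galnt3 had log2 ratios of 0.03, -0.03 and -0.08 and were not called. Gcnt3, a mucin core 2 and core 4 branching enzyme, had 0.0678 to 1.86 CPM above the cut and 0 to 0.0852 CPM below it, with an adjusted p of 0.0746 (edgeR).

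The called genes outside these lists were of mixed kinds. Lman1l, related to the cargo lectin of the path from endoplasmic reticulum to Golgi, had 10.6, 26.7 and 59.7 CPM above the cut at the lowest, median and highest, and 1.503, 1.91 and 3.21 CPM below it (log2 3.65 ± 0.36, adjusted p = 0.00135, edgeR). Cgref1, a calcium-binding EF-hand protein, had 3.87 to 26.2 CPM above the cut and 0.824 to 2.95 CPM below it (log2 2.52 ± 0.24, adjusted p = 1.70e-04, edgeR). Tmc5, of the transmembrane channel-like family, had 2.00 to 12.2 CPM above the cut and 0.0699 to 0.634 CPM below it (log2 4.09 ± 0.51, adjusted p = 0.00285, edgeR). These 3 genes did not overlap between the sets.

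Low-count genes with clear separation were Slc8a3, a sodium-calcium exchanger, with 345 counts above the cut and 10 below, and Mobp, known as a myelin protein of the brain, with 307 counts above and 1 below. Dio1, a deiodinase that activates thyroid hormone, had 258 counts above and 17 below, and Ptprn2, a protein of dense-core granules, had 235 above and 24 below. Bcan and Gm20467 had 0 counts below the cut and were at least 82.1-fold and 83.3-fold higher above it, against the same floor of 3 counts over the 9 libraries. Their calls ended without most single libraries, with an adjusted p of up to 0.248 for Bcan and 0.252 for Gm20467. Of the 37 called genes other than Dcpp2 and Dcpp3, 14 passed the threshold without each single library. These were B3gnt6, Muc19, Cgref1, Nkx2-3, A2ml1, A4gnt, Slc8a3, Mobp, Lman1l, Pglyrp1, Galnt5, Dio1, Tmc5 and Ptprn2. With the cut at 1000 CPM, which puts NT replicate 1 below it, Cgref1 and Galnt5 kept their calls among these 14, with adjusted p of 0.0490 and 0.0230 (edgeR). The adjusted p was then 0.196 for both Muc19 and B3gnt6, 0.467 for A2ml1 and 0.682 for Nkx2-3 (edgeR), and 11 of the 37 passed. With the cut at 10 CPM, 14 of the 37 passed. The 23 genes outside the 14 lost their calls without at least 1 library. Without IR_4d replicate 3, the IR_4d library below the cut, 21 calls were lost, without IR_iEV_30d replicate 2, the day 30 library above the cut, 20, and without IR_iEV_4d replicate 1, 19.

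The gene called lower was Mt2, a metal-binding metallothionein. It had 13.2, 14.5 and 27.2 CPM above the cut at the lowest, median and highest, and 15.8, 23.7 and 36.4 CPM below it, so the sets overlapped. Its log2 ratio was -0.54 ± 0.10 (adjusted p = 0.0419, edgeR). Mt1, its close paralog, had -0.28 ± 0.09 (adjusted p = 0.507, edgeR). The call of Mt2 held in 3 of the 15 fits that each left out 1 library, those without NT replicate 2, IR_iEV_30d replicate 1 or IR_iEV_30d replicate 2. In the others its adjusted p was up to 0.254, with log2 ratios from -0.63 to -0.46 over all 15.

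Among the 6 Dcpp3-high libraries, a subset of genes kept a nearly fixed ratio to Dcpp3 although Dcpp3 itself varied widely. The ratios are of counts, not per length, so only their constancy is described. The SD of log2 Dcpp3 CPM over the 6 libraries was 1.05. The median SD of the log2 ratio to Dcpp3 was 1.06 over the 11783 genes that averaged 2 CPM or more in those libraries. It was under 0.35 for 15 genes. Dcpp2 had an SD of 0.0381, with ratios from 0.823 to 0.892, and these reads may be shared. Sox2 had an SD of 0.175, Nkx2-3 of 0.179, A2ml1 of 0.183, Kcne1, a potassium channel subunit, of 0.196, Galnt12 of 0.240, Lman1l of 0.254, B3gnt6 of 0.266, Cgref1 of 0.269 and Syt7, a calcium sensor of exocytosis, of 0.289. Muc19 had 0.306 and Smgc 0.322.

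The A2ml1 ratio was 2.19 and 2.60 in IR_iEV_4d replicates 2 and 3, 2.27 and 2.45 in IR_4d replicates 1 and 2, 1.81 in IR_iEV_30d replicate 2 and 2.07 in NT replicate 1. NT replicate 1, the library with the least Dcpp3, was therefore inside the range of the rest. Galnt6 and Sel1l3 also stayed under 0.35, at 0.201 and 0.279, but were not called by the division (adjusted p = 0.242 for both, edgeR). Aqp5, the water channel of acinar cells, had an SD of 0.989, and Prol1, a submandibular secretory product, of 1.22.

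**Figure D4:**
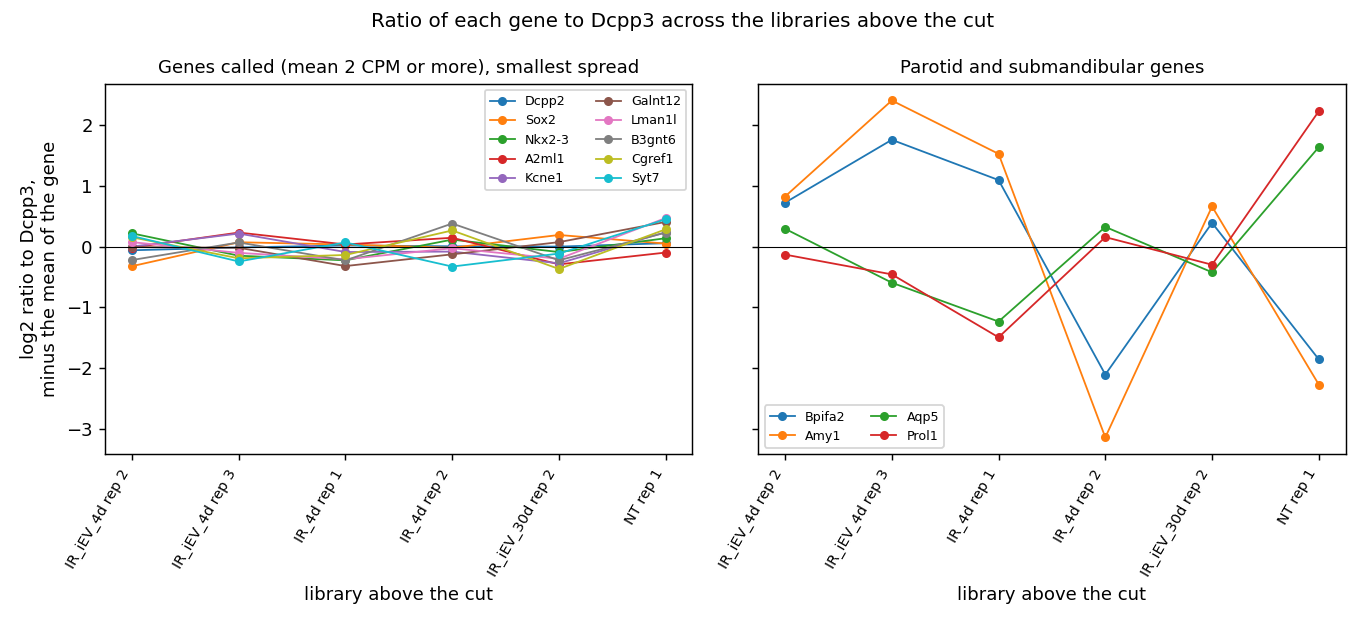
Log2 ratio of each gene to Dcpp3, minus the gene's own mean, in the 6 libraries above the cut, for the 10 genes with the smallest spread among called genes that averaged 2 CPM or more above the cut (left) and for 4 parotid and submandibular genes (right). Lines on the left stay close to 0, as the SD of 0.0381 to 0.289 shows, while Bpifa2 and Amy1 on the right, with SD of 1.60 and 2.20, drop in IR_4d replicate 2 and NT replicate 1.

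Parotid products varied in another pattern. Bpifa2, a secretory protein of parotid gland and of sublingual demilunes, had 70.4 CPM at the lowest, 1363 at the median and 4911 at the highest above the cut, and 0.252, 12.3 and 1057 CPM below it. The sets overlapped, and the log2 ratio of 4.23 ± 1.48 was not called (adjusted p = 0.757, edgeR). Amy1, salivary amylase, had 14.7, 433 and 1897 CPM above the cut and 13.7, 24.2 and 462 CPM below it (log2 2.25 ± 1.21, adjusted p = 0.952, edgeR). Of 6 parotid genes tested 0 were called by edgeR or DESeq2 and 1 had an unadjusted p under 0.05, with a median log2 ratio of 2.22. IR_4d replicate 2 and NT replicate 1 had high Dcpp3 but little Amy1, 26.4 and 14.7 CPM, and 10.2 and 0 CPM of Smr3a, a submaxillary secretory product. IR_iEV_4d replicate 3 and IR_4d replicate 1 had 1897 and 1845 CPM of Amy1 and 1552 and 1898 CPM of Smr3a. Smr3a was in the list of submandibular acinar genes, but it had at most 0.074 CPM in the NT libraries.

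The parotid list without Car6, a carbonic anhydrase that was at 19440 CPM or more in every library, had a mean log2 CPM from 0.521 to 7.35 above the cut (median 5.61) and from -0.80 to 5.51 below it (median 0.647). With this level as a covariate, 17 genes were called for the division, all of them among the 39. The part of parotid transcripts in the other 22 calls was not tested further.

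The 3 libraries just below the cut had more Dcpp3 than the rest below it. IR_iEV_4d replicate 1, IR_4d replicate 3 and IR_30d replicate 2 had 9.04, 8.25 and 10.9 CPM of Dcpp3, whereas the other 6 libraries below the cut had at most 1.18 CPM. Their ratio of Dcpp1 to Dcpp3 was 3.39, 1.91 and 2.24, against 0.186 to 0.382 in the 6 libraries above the cut and 0.325 to 4.29 in the other 6 below it. Dcpp1 made up 73.0, 54.3 and 64.0% of the summed Dcpp level in them, against 9.01 to 17.1% above the cut and 20.0 to 81.1% in the other 6 below it. Their A2ml1 ratio to Dcpp3 was 0.355, 0.983 and 0.00787, against 1.81 to 2.60 above the cut and 0.075 to 0.571 in the other 6 below it. Both Dcpp1 measures of the 3 libraries lay inside the range of the other 6 below the cut, and their A2ml1 ratios lay on both sides of and inside it.

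In the same 3 libraries the parotid products Bpifa2 and Amy1, and also Chia1, were high. Bpifa2 had 1057, 429 and 296 CPM in them, against at most 14.7 CPM in the other 6 libraries below the cut. Amy1 had 462, 183 and 128 CPM in them, against at most 26.2 CPM in those 6, and Chia1, an acidic chitinase, had 89.5, 39.5 and 27.8 CPM against at most 0.652. Nkx2-3 had 0 counts and Muc19 at most 1.01 CPM in these 3. Without these 3 libraries, a fit chosen after the data were seen, 13 genes were called for the division, 10 of them among the 39.

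**Figure D5:**
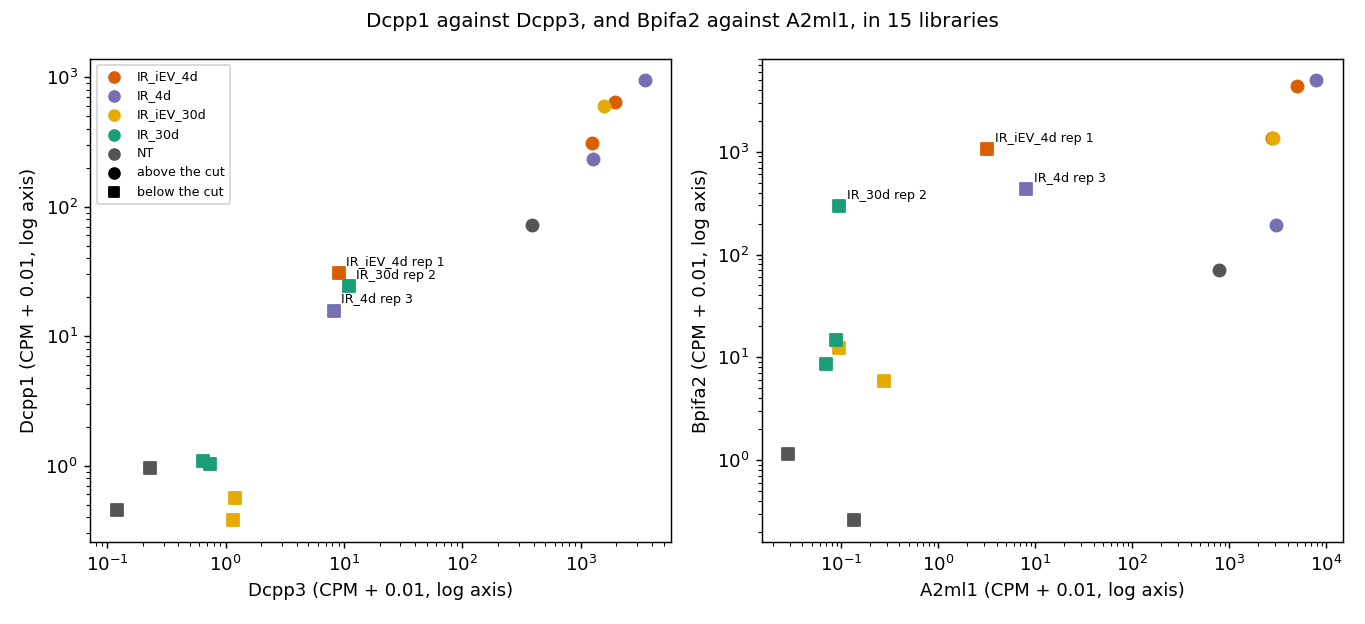
Dcpp1 against Dcpp3 (left) and Bpifa2 against A2ml1 (right) in the 15 libraries, as CPM plus 0.01 on log axes, with circles above the cut and squares below it. The 3 labelled libraries lie between the others for Dcpp1 and Dcpp3, and they combine 296 to 1057 CPM of Bpifa2 with at most 8.11 CPM of A2ml1.

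Markers of the submandibular gland itself and of other cells did not pass with the division. Of 18 submandibular acinar genes 0 were called (median log2 ratio -0.046), of 20 granular tubule products 0 (median 0.026), of 16 duct genes 0 (median -0.0937) and of 11 myoepithelial genes 0 (median -0.159). The log2 ratio was above 0 in 5 of these acinar, 12 granular tubule, 2 duct and 2 myoepithelial genes. Of all 16042 genes tested it was above 0 in 8076. The acinar list ran from -0.295 to 3.62, the highest being Smr3a. Aqp5 had 266.7 to 358 CPM above the cut and 192.1 to 319 CPM below it, with a log2 ratio of 0.01 ± 0.07 (adjusted p = 0.999, edgeR). The acinar members with an unadjusted p under 0.05 (edgeR) all had negative ratios. They were Slc12a2 (log2 -0.29 ± 0.09), Kcnma1 (-0.24 ± 0.07) and Kcnn4 (-0.16 ± 0.07), with adjusted p of 0.469, 0.387 and 0.906 (edgeR). Of 25 p53 targets, 25 interferon-stimulated genes, 14 macrophage, 7 lymphoid, 7 plasma cell, 12 endothelial, 14 fibroblast and 9 Schwann cell genes none was called, with medians between -0.0445 and 0.0662. These 0 counts are edgeR's, and DESeq2 and limma-voom also called 0 in each of the 12 lists. The members with an unadjusted p under 0.05 numbered 3 for acinar genes, 2 for interferon-stimulated genes, 1 each for myoepithelial, endothelial, macrophage and p53 genes, and 0 for the other 6 lists.

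Fat and muscle varied between single libraries. The 15 adipose genes had a median log2 ratio of -0.638 and 0 calls (edgeR and DESeq2, 0 at an unadjusted p under 0.05), with mean log2 CPM of 4.69 in IR_iEV_4d replicate 2 above the cut, and 3.19 and 3.40 in IR_iEV_4d replicate 1 and IR_4d replicate 3 below it. Of 16 skeletal muscle genes 8 were tested and 0 called (edgeR and DESeq2, 0 at an unadjusted p under 0.05), with a median of 0.62. Their mean log2 CPM was 2.09 in IR_iEV_4d replicate 2 and between -2.27 and -0.764 in the other 14 libraries. The other 8 muscle genes had counts in too few libraries to be tested. Among them the fast myosin Myh4 had 2039 counts above the cut, 2027 of them in IR_iEV_4d replicate 2, and 0 below it. With the adipose level as a covariate 35 genes were called for the division and 32 of these were among the 39, and with the muscle level 45 and 35.

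Because Dcpp3-high libraries were spread unevenly, 2 of 3 in IR_iEV_4d, 2 of 3 in IR_4d, 1 of 3 in IR_iEV_30d, 0 of 3 in IR_30d and 1 of 3 in NT, the 4 treatment comparisons were fitted with and without the division as a term. For the 38 genes, the median treatment log2 ratio was 1.51 with the term and 2.84 without it in IR_4d against NT, and -0.41 and -0.53 in IR_iEV_4d against IR_4d. It was 0.467 with the term and -1.67 without it in IR_30d against NT, and 0.0458 and 2.20 in IR_iEV_30d against IR_30d. Both IR groups are set against NT and are themselves the base of the iEV comparisons, so the 4 comparisons share libraries. The median SE of these genes was 0.627 to 0.832 with the term and 1.31 to 1.80 without it. The 38 genes were picked by this term in the same fit and include Dcpp2 and Dcpp3. A smaller SE and moved medians with the term follow from that choice and are a description only.

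In IR_4d against NT, 198 genes were called with the term, 1.23% of those tested, and 224 without it, 1.40%, and 182 were in both. In IR_iEV_4d against IR_4d there were 7, 0.0436%, and 5, 0.0312%, with 5 in both. In IR_30d against NT there were 658, 4.10%, and 718, 4.48%, with 599 in both, and in IR_iEV_30d against IR_30d 145, 0.904%, and 128, 0.798%, with 110 in both. Of the 38 genes, 3, 0, 3 and 1 were called with the term in these 4 comparisons and 1, 0, 0 and 0 without it. Leaving out single libraries moved the first count between 92 and 237, the second between 0 and 9, the third between 323 and 830 and the fourth between 14 and 245. The second was 0 without IR_4d replicate 1 (714 genes at an unadjusted p under 0.05) and without IR_4d replicate 3 (1003). DESeq2 gave 368, 32, 1055 and 459.

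The term changed the treatment calls of Pglyrp1. It had 13.1, 18.4 and 20.0 CPM in IR_30d, all below the cut, against 6.99 CPM in NT replicate 1 above the cut and 1.89 and 2.85 CPM in the NT replicates below it. With the term, the log2 ratio of IR_30d over NT was 3.05 ± 0.33 (adjusted p = 2.76e-04, edgeR), and without it 2.14 ± 0.94 (adjusted p = 0.292, edgeR). This call held without each single library, in fits that reuse the other libraries and the same term. The division picked Pglyrp1, and also Gp2, Mgat5, Mt2, B3gnt6 and Cgref1 below, in the same fit. Treatment calls that these genes gained or kept with the term are therefore a description only. IR_30d had no library above the cut, so the size of its term rests on the other groups. In IR_iEV_30d, Pglyrp1 had 20.4 CPM in replicate 2 above the cut and 3.41 and 3.94 CPM in replicates 1 and 3 below it. The log2 ratio of IR_iEV_30d over IR_30d was -2.09 ± 0.32 with the term (adjusted p = 0.0140, edgeR) and -0.91 ± 0.89 without it (adjusted p = 0.722, edgeR). The comparison of IR_iEV_30d with IR_30d kept its call with the term in 11 of 15 fits without 1 library, and the adjusted p was up to 0.133 without replicate 2 or 3 of IR_30d or replicate 1 or 3 of IR_iEV_30d. Gp2, the zymogen granule membrane glycoprotein 2, and Mgat5, an N-glycan branching enzyme, were also called in IR_30d against NT with the term alone. Gp2 had 0.302, 0.688 and 0.701 CPM in IR_30d, against 0.0860, 0.126 and 0.0370 CPM in NT, with a log2 ratio of 4.25 ± 0.99 with the term (adjusted p = 0.0225, edgeR) and 2.81 ± 1.52 without it (adjusted p = 0.408, edgeR). The log2 ratio of Mgat5 was 0.69 ± 0.17 with the term (adjusted p = 0.0323, edgeR) and 0.42 ± 0.31 without it (adjusted p = 0.598, edgeR). Leaving out 1 library ended the call of Gp2 for 4 libraries, replicates 1 and 3 of NT and 2 and 3 of IR_30d, with an adjusted p of up to 0.0872. It ended that of Mgat5 for each library of both groups, with an adjusted p of up to 0.116. The division itself called Gp2 in 2 and Mgat5 in 12 of the 15 fits without 1 library.

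Mt2 had 15.8 to 19.8 CPM in IR_30d, against 19.6 CPM in NT replicate 1 above the cut and 24.4 and 36.4 CPM in NT replicates 2 and 3. The log2 ratio of IR_30d over NT was -0.72 ± 0.14 with the term (adjusted p = 0.00757, edgeR) and -0.57 ± 0.24 without it (adjusted p = 0.250, edgeR). The call with the term ended without NT replicate 3 or IR_30d replicate 2, with an adjusted p of up to 0.0698. In IR_iEV_30d against IR_30d the ratio was 0.94 ± 0.15 with the term (adjusted p = 0.00820, edgeR) and 0.76 ± 0.24 without it (adjusted p = 0.206, edgeR), and that call ended without IR_30d replicate 2 (adjusted p = 0.0562). With log2 Dcpp3 as a number in place of the division, Pglyrp1 and Mt2 were called in both comparisons. Gp2 and Mgat5 then lost their calls in IR_30d against NT (adjusted p = 0.148 and 0.136, edgeR). A2ml1 was called in IR_30d against NT in that fit (log2 -5.255 ± 0.97, adjusted p = 0.0128, edgeR). It was not called there with the division as term (log2 -1.88 ± 1.94, adjusted p = 0.7435, edgeR). A2ml1 had 2, 3 and 3 counts in IR_30d and 4 and 1 in NT replicates 2 and 3, against 27734 in NT replicate 1. Apart from NT replicate 1, both groups were thus near 0.

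B3gnt6 and Cgref1 were called in IR_4d against NT with the term, with log2 ratios of 2.28 ± 0.39 (adjusted p = 0.00771, edgeR) and 1.87 ± 0.33 (adjusted p = 0.0107, edgeR). Both calls ended without NT replicate 1, with adjusted p of 0.134 and 0.102, and with log2 Dcpp3 as a number, with adjusted p of 0.804 and 0.625. NT replicate 1 is the Dcpp3-high library with the lowest Dcpp3, and the division gives it the same term as IR_4d replicate 1, which had the highest. Sh3bgrl2 was called in IR_4d against NT both with the term (log2 0.59 ± 0.08, adjusted p = 5.81e-04, edgeR) and without it (0.69 ± 0.13, adjusted p = 0.00785, edgeR).

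Genes outside the set differed in how far the term moved their treatment ratios. Bpifa2, a parotid secretory protein, had log2 ratios of 5.71 ± 2.27 with the term and 2.16 ± 2.40 without it in IR_30d against NT (adjusted p = 0.251 and 0.763, edgeR), and -1.79 ± 2.10 and 2.11 ± 2.39 in IR_iEV_30d against IR_30d (adjusted p = 0.762 and 0.766, edgeR). Amy1, salivary amylase, had -0.43 ± 1.64 with the term and 1.46 ± 1.59 without it in IR_iEV_30d against IR_30d (adjusted p = 0.937 and 0.753, edgeR). Neither gene was called in these comparisons, and the sign of the day 30 iEV ratio turned for both. Cdkn1a and Aqp5 had nearly the same ratios in both fits. Cdkn1a, a p53 target that arrests the cell cycle, had log2 ratios of 4.42 ± 0.27 with the term and 4.43 ± 0.26 without it in IR_4d against NT, and 3.71 ± 0.27 and 3.70 ± 0.25 in IR_30d against NT. Aqp5 in IR_30d against NT had -0.45 ± 0.10 in both fits (adjusted p = 0.0172 and 0.0121, edgeR). With the term that call was lost when replicate 2 or 3 of NT or replicate 1 or 2 of IR_30d was left out, with an adjusted p of up to 0.0805. Aqp5 in IR_iEV_30d against IR_30d had 0.45 ± 0.10 in both fits (adjusted p = 0.0448 and 0.0411, edgeR), and with the term it passed in 4 of 15 fits that left out 1 library, with an adjusted p of up to 0.273. Ifit3, an antiviral effector, lost its call in IR_4d against NT with the term (-0.93 ± 0.22, adjusted p = 0.0505, edgeR) and had -0.99 ± 0.21 without it (adjusted p = 0.0200, edgeR).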

How the data were processed

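The authors deposited a table of read counts per gene symbol, with 1 column for each of 15 bulk RNA libraries. The submitters' processing notes name TopHat, HTSeq, DESeq2 and build GRCm39 without versions. The labels' protocols give TRIzol extraction and a directional library kit, and the strand setting of the counting is not given in the sources used here. The table held 21013 symbols, 15 with no count. Libraries were divided at Dcpp3 above 100 CPM of the column total. The test was the robust quasi-likelihood F test of edgeR 4.0.16 (R 4.3.3), with TMM, filterByExpr at minimum count 10 and minimum total 15, and the 5 groups and the division as terms for all 15 libraries. The SE was derived from the log2 ratio and its F statistic. The pipeline was tested on simulated data. The members, gene lists and tests were chosen with earlier results of these data known. The rule for named genes took, among genes past adjusted p 0.05, the 15 that rose and the 10 that fell most (at least 2 CPM and 1 direction in every informative group), up to 5 genes per list by p, the 10 smallest SD of ratio to Dcpp3, and 9 fixed genes. The text gives a selection, and other genes named (Foxa2, Gcnt3, Galnt6, Sel1l3, Mt1, Mobp, Bcan and others at low counts, and treatment genes) were picked after their values were seen. Promoters are from RefSeq on GRCm38.p6. The Dcpp transcripts are from GENCODE, with 1 per gene picked by its length (610, 589 and 617 bases for Dcpp3, Dcpp2 and Dcpp1). Both kinds of sequence were aligned with Biopython 1.88. Totals of 29082798 to 52201098 counts and 3 libraries per group limit precision. No pair of libraries held identical values. Alternatives were DESeq2 1.42.0, limma-voom (limma 3.58.1), other scalings, filters, covariates and cuts, a replicate block, and leaving out each library.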

Additional observations from a re-analysis of the deposited data

How the results depend on the processing

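The 37 called genes other than Dcpp2 and Dcpp3 were followed over 31 alternative settings. All 1124 values kept their direction, 795 of them past the threshold and 329 not. The genes were picked by the main fit and the settings reuse its libraries, so a kept direction is no separate support. The number of genes called for the Dcpp3 division was 39, and it was 97 with DESeq2, 13 at a mean of at least 5 CPM, where 9853 genes were tested, and 70 with no treatment groups. It was 18 with the cut at 10 and 16 with the cut at 1000, which puts NT replicate 1 below. Among alternatives added after the data were seen, it was 17 with the parotid level as covariate and 13 without the 3 libraries between 5 and 100 CPM. The cause was not tested. It was 18 to 45 when single libraries were left out, and between 27 and 45 in the other settings. IR_4d against NT, with 198 called, gave 368 with DESeq2 and 92 to 237 without single libraries. IR_iEV_4d against IR_4d, with 7, gave 32 and 0 to 9, IR_30d against NT, with 658, gave 1055 and 323 to 830, and IR_iEV_30d against IR_30d, with 145, gave 459 and 14 to 245. Of 30 pairs of samples that carry the same replicate number, 5 correlated over 0.1 (-0.292 to 0.188), and 3 libraries correlated best with their own number. Pairs with different numbers were not summarised, so these values cannot decide whether the numbers mark a batch. With the replicate block the counts were 27 for the division, 156, 3, 522 and 74. Depth limits genes such as Bcan and Foxa2, whose counts below the cut were 0.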
